A study of Mus musculus with 8 samples.

Results

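The genes described here are 5 members of the Ifitm family, Ifitm1, Ifitm2, Ifitm3, Ifitm6 and Ifitm10, followed in mouse lung macrophages with and without an intact Tgfbr2 gene. They were chosen by gene name, as 5 of the 22597 genes in the table, in a family proposed with the genotype differences of these libraries already known. Their values in this contrast are therefore a description and support nothing on their own. All 5 had enough counts to be tested, and a further 2 rows carried an Ifitm name: Ifitm5, which is given once below, and Ifitm7, which had 1 count in 1 library.

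IFITM proteins (interferon-induced transmembrane proteins) are small membrane proteins of the CD225, or dispanin, family. They sit in the plasma membrane and in endosomes and hinder the fusion of enveloped viruses with these membranes, so that the virus does not reach the cytosol. Interferons switch on the antiviral members through interferon-stimulated response elements (ISREs) in their promoters, and many tissues also make them without infection. Ifitm3 works mainly in late endosomes and lysosomes, Ifitm2 also lies mostly inside the cell, and Ifitm1 is found more at the cell surface. Ifitm6 is a rodent gene best known from cells of the blood-forming lineage, Ifitm5 acts in bone-forming cells, and Ifitm10 is an outlying and little characterised member. Ifitm1, Ifitm2 and Ifitm3 are also made by epithelial and endothelial cells, so their transcripts in a macrophage preparation need not all come from macrophages.

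In the GENCODE M21 annotation of GRCm38, Ifitm5, Ifitm2, Ifitm1, Ifitm3 and Ifitm6 lie side by side on chromosome 7, within 140948958 to 141017924, a span of 69.0 kb. Ifitm10 lies 1308 kb further along the same chromosome. Ifitm1 (140967221 to 140969825) is on the plus strand. Ifitm2 (140954837 to 140955987), Ifitm3 (141009586 to 141010770), Ifitm6 (141015699 to 141017924) and Ifitm10 (142325837 to 142373753) are on the minus strand.

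The promoters of Ifitm2 and Ifitm3 are shown because they are the only ones of the 5 members with the core of an ISRE, here GAAANNGAAA on either strand. The windows come from RefSeq (GRCm38.p6) and run from 250 bases before to 50 bases after the annotated start, whose first transcribed base is numbered 1; all 5 members matched. The Ifitm2 window holds 1 match, at -46 to -37. The Ifitm3 window holds 2 matches, at 3 to 12 and at 20 to 29, just after the start in this annotation. RefSeq starts differ from the GENCODE coordinates above: those of Ifitm2 and Ifitm3 lie 26 bases inside the GENCODE gene, and that of Ifitm1 lies 855 bases inside it. That of Ifitm6 lies 1032 bases inside its gene, 16 bases from the start of its shortest GENCODE transcript. Ifitm10 has 3 windows, with starts 7 to 1494 bases inside its gene. Sequence before the GENCODE gene starts of Ifitm1 and Ifitm6 was not searched. Below, 30 bases around these sites are written 5′ to 3′ along the gene, with the ISRE core in capitals.
Ifitm2, chr7:140955980-140956009, minus strand: agGAAAAGGAAAttgctagagaaagggcgg
Ifitm3, chr7:141010715-141010744, minus strand: agGAAAAGGAAActtctgaGAAACCGAAAc
The first core is spelled alike in both genes, and the 30 bases were aligned on it. Of the 30 positions 18 are identical, and these include the core itself. The 110 bases before the RefSeq start of both genes follow, together with those of Ifitm6, in which the capitals mark a match to TTCNNNGAA, the spelling of an interferon-γ activated site (GAS), at -10 to -2.
Ifitm2, chr7:140955962-140956071, minus strand: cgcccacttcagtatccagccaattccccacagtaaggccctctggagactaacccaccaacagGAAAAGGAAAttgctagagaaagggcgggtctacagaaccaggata
Ifitm3, chr7:141010745-141010854, minus strand: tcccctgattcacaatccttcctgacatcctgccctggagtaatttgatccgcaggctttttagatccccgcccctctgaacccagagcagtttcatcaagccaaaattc
Ifitm6, chr7:141016893-141017002, minus strand: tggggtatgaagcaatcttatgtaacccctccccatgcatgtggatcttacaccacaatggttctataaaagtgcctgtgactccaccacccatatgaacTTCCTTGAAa
Ifitm3 also held a GAS match, at 14 to 22, which overlaps its second ISRE core. None of the windows of the 5 members held the Smad palindrome GTCTAGAC. Of all 32851 RefSeq promoter windows, 3.44% held the ISRE core at least once, 0.225% held it at least 2 times, 8.30% held the GAS spelling and 0.213% held the Smad palindrome. A match describes the letters of the window and does not show a site in use.

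The libraries hold RNA of interstitial macrophages, the macrophages of the lung tissue outside the air spaces, sorted from female C57BL/6 mice. Recipients were CD45.1/CD45.2 IMDTR mice, in which diphtheria toxin kills interstitial macrophages and which the labels also call Cx3cr1-DTR. They were irradiated with the thorax shielded and given bone marrow from Tgfbr2fl/fl donors (WT) or Lyz2Cre Tgfbr2fl/fl donors (Tgfbr2_KO). After 1 month both groups received 50 ng diphtheria toxin, and macrophages were sorted 10 days later. The sample labels give an age of 12 to 16 weeks, while the protocol gives recipients of 18 weeks. Both groups share the floxed alleles, the transgene and the toxin, and Cre is carried by the KO donors only, so that effects of Cre and of the receptor's loss cannot be told apart. Lyz2Cre is active in myeloid cells in general and not in 1 kind of macrophage, and host cells of the shielded lung can remain. There were 4 libraries per genotype, here WT 1 to 4 and KO 1 to 4.

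Total counts were between 15597310 and 37654133 per library, and 3 counts, the floor used here, were 0.0844 to 0.177 CPM, the usual count per unit of library total, with totals adjusted by TMM. The transcript total of Tgfbr2 was 474 to 548 CPM in WT and 424 to 576 CPM in KO and did not pass the test (log2 fold change -0.03, edgeR adjusted p = 1.00), and a gene total need not show the loss of floxed exons. WT 1, WT 2 and KO 1, called lung-rich here, held far more lung transcripts than the other 5 libraries. Their summed markers were 3470 to 6260 CPM for epithelium (19 genes) where the others had 181 to 280 CPM, and 3361 to 6550 CPM against 399 to 464 CPM for endothelium (19 genes). Sftpc and Sftpa1 led the first list, and Calcrl and Cdh5 the second; Bgn and Inmt led 14 fibroblast markers, at 1333 to 2176 CPM against 172 to 225 CPM. The 16 interstitial macrophage markers, led by H2-Ab1 and Apoe, summed to 15042 to 23884 CPM in the lung-rich libraries and to 33102 to 36596 CPM in the others. The sets were defined from the data and are not groups of the study. Each has libraries of both genotypes, so member values are given within each set and with the set as a term of the fit. In bulk RNA, fewer cells of a type and less RNA per cell cannot be told apart.

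Ifitm3, the endosomal member, rose in KO. From WT 1 to WT 4 it measured 187, 169, 138 and 149 CPM, and from KO 1 to KO 4 it measured 356, 351, 380 and 376 CPM. The groups did not overlap, and the lowest KO library was at 1.87 times the highest WT library. The means were 161 ± 21.8 CPM in WT and 365 ± 14.4 CPM in KO (SD, n = 4), a log2 fold change of 1.18 (SE 0.11, 95% interval 0.93 to 1.44) with an adjusted p of 0.0197 in edgeR's quasi-likelihood test over 12750 genes. It was the only member called in the fit over 8 libraries, where 0.196% of all genes tested were called higher in KO. The call was lost when any 1 library other than KO 1 was left out: no gene of the table then passed, and the edgeR adjusted p of Ifitm3 was 0.0578 to 0.191, while without KO 1 it was 0.00267. Its log2 fold change in these fits stayed between 1.12 and 1.27. In WT, Ifitm3 was 1.24 times as high in the lung-rich as in the other libraries, and the lung-rich WT libraries lay closer to the KO level.

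Ifitm2, the most abundant member per length of transcript in WT, was also the steadiest there. The 4 WT libraries had 236, 233, 226 and 229 CPM, in the order WT 1 to WT 4, and KO 1 to KO 4 had 308, 437, 426 and 423 CPM. WT libraries were alike in both sets, and among the KO libraries KO 1 was low, though still above every WT library. The means were 231 ± 4.49 CPM and 398 ± 60.7 CPM (SD, n = 4), and the log2 fold change was 0.79 (SE 0.12), which over 8 libraries missed the threshold at an edgeR adjusted p of 0.0590. In the fit that includes the library set its value was 0.73, which passed at an edgeR adjusted p of 0.00259. Leaving out KO 1 also brought it past the threshold, at 0.89 (edgeR adjusted p = 5.25e-04).

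Ifitm1, the member found more at the cell surface, was much less abundant. Its WT libraries were at 28.3, 24.4, 22.1 and 21.5 CPM and its KO libraries at 30.8, 39.3, 33.5 and 36.7 CPM. Every KO library was above every WT library, but KO 1 exceeded WT 1, also lung-rich, by little. The means were 24.04 ± 3.09 CPM and 35.1 ± 3.71 CPM (SD, n = 4), and the log2 fold change was 0.55 (SE 0.12), which missed the threshold over 8 libraries (edgeR adjusted p = 0.136). It passed with the set as a term, at 0.56 (edgeR adjusted p = 0.0140), and without KO 1, at 0.60 (edgeR adjusted p = 0.0269).

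Ifitm6, the rodent member known from blood-forming lineages, had the largest fold change of the 5 and was low in every library. Its values were 6.86, 6.94, 11.3 and 9.62 CPM in WT and 16.6, 28.5, 30.5 and 28.4 CPM in KO. In both genotypes the lung-rich libraries had the lowest values, and all KO libraries again lay above all WT libraries. The means were 8.69 ± 2.18 CPM and 26.0 ± 6.35 CPM (SD, n = 4), a log2 fold change of 1.58 (SE 0.25) with an edgeR adjusted p of 0.0606, which did not pass. It passed with the set as a term, at 1.41 (edgeR adjusted p = 1.47e-04), and without KO 1, at 1.74 (edgeR adjusted p = 0.00408). Neutrophils and monocytes are other myeloid cells in which this gene is known, and within each library set their marker sums were lower in KO. The 13 neutrophil markers, led by Csf3r and Il1r2 and with Elane at 0 in every library, summed to 139 to 145 CPM in WT 1 and WT 2 against 134 CPM in KO 1, and to 273 to 285 CPM in WT 3 and WT 4 against 181 to 201 CPM in the other KO libraries. The 7 classical monocyte markers, led by Ccr2 and Chil3, summed to 539 to 704 CPM in WT 1 and WT 2 against 475 CPM in KO 1. In the other libraries they summed to 1289 to 1301 CPM in WT against 752 to 836 CPM in KO. Sums weigh the highest genes most, and Ccr2 and Chil3 made up most of the monocyte sum. In the other libraries Chil3 was at 347 to 348 CPM in WT and 15.8 to 17.6 CPM in KO. Ccr2 was there at 802 to 808 CPM in WT and 539 to 685 CPM in KO. Single markers did not all go this way: of the 7 monocyte markers, 1 rose and 2 fell with the set as a term (8.59% and 7.89% of all genes). The median log2 fold change of the monocyte markers was 0.26 with the set as a term and -0.03 in the other 5 libraries. In the lung-rich libraries it was 0.51. For the tested neutrophil markers these medians were -0.44, -0.61 and 0.25. The part of these cells in the Ifitm6 values was not tested.

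Ifitm10, outside the cluster, followed the library set and not the genotype. It was at 4.26, 2.46, 0.513 and 0.450 CPM in WT and at 4.93, 0.458, 0.867 and 0.330 CPM in KO. The 3 lung-rich libraries were high, at 2.46 to 4.93 CPM, and the other 5 were low, at 0.330 to 0.867 CPM, from as few as 6 counts. The genotypes overlapped, and the log2 fold change was -0.20 with a 95% interval of -2.71 to 2.31 (edgeR adjusted p = 1.00). The sign turned to 0.40 with the set as a term and 0.21 within the other 5 libraries, neither of which passed (edgeR adjusted p = 0.439 and 0.780), and to 0.51 within the lung-rich set.

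**Figure D1:**
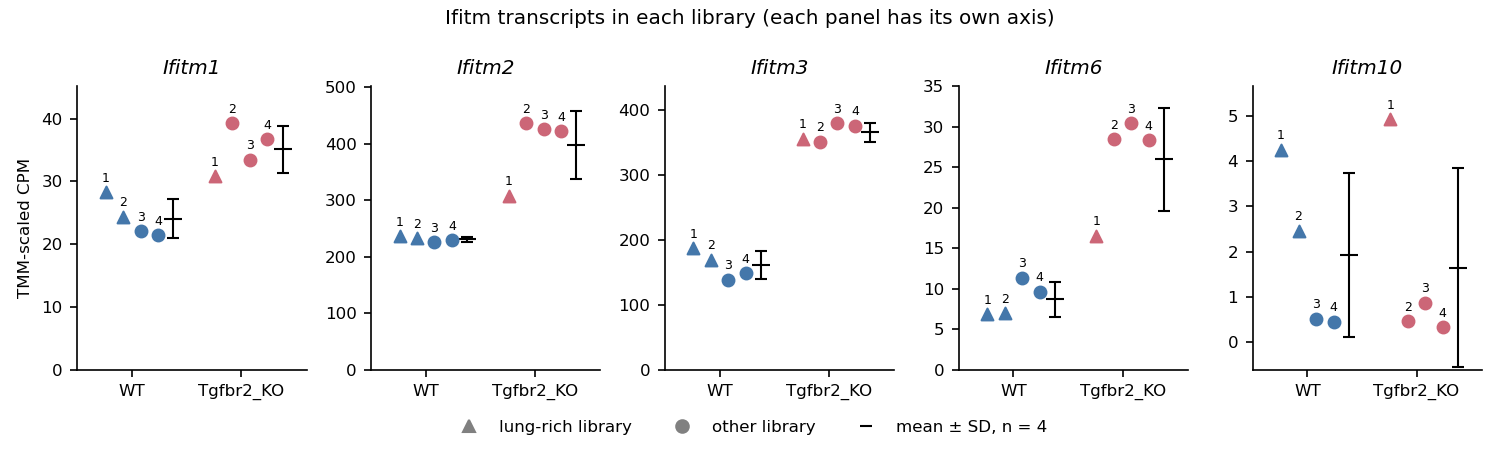
TMM-scaled CPM of each Ifitm gene in the 8 libraries (points, numbered by replicate; triangles are the lung-rich libraries WT 1, WT 2 and KO 1), with the mean and SD of each genotype (n = 4). For Ifitm1, Ifitm2, Ifitm3 and Ifitm6 every KO point is above every WT point, while Ifitm10 is high in the 3 lung-rich libraries of either genotype.

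Ifitm1, Ifitm2, Ifitm3 and Ifitm6, 4 of the 5 members, thus had every KO library above every WT library, as did 4.19% of all genes tested. The same 4 passed with the set as a term, where 8.59% of all genes tested were called higher in KO, and the same 4 passed in the other 5 libraries, where 19.7% were. Since the family was proposed from this contrast, nothing is read from these counts. By log2 fold change over 8 libraries, Ifitm6 ranked 70, Ifitm3 138, Ifitm2 308, Ifitm1 578 and Ifitm10 10491 among the 12750 genes, whose median was -0.01.

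Within the other 5 libraries (WT 3, WT 4, KO 2, KO 3 and KO 4) the differences of the cluster members were larger for Ifitm1, Ifitm2 and Ifitm3 than over all 8. Ifitm1 had a log2 fold change of 0.75 (SE 0.08), Ifitm2 of 0.91 (SE 0.03), Ifitm3 of 1.36 (SE 0.04) and Ifitm6 of 1.49 (SE 0.09). The edgeR adjusted p was 1.48e-07 for Ifitm1, 2.05e-14 for Ifitm2, 1.92e-13 for Ifitm3 and 1.01e-10 for Ifitm6. These libraries lie very close together within a genotype, as for Ifitm2 at 226 and 229 CPM in WT, and such small p-values reflect that spread. Marker sums also differed between the genotypes in these libraries: lymphocyte markers were at 54.0 to 57.0 CPM in WT and 75.3 to 97.3 CPM in KO, alveolar macrophage markers at 286 to 295 CPM and 149 to 170 CPM, and interstitial macrophage markers at 36084 to 36596 CPM and 33102 to 33303 CPM. Cd4 made up most of the lymphocyte sum, at 39.6 to 40.0 CPM in WT and 56.9 to 79.4 CPM in KO. Cd79b, the next highest, was at 8.67 to 10.8 CPM in WT and 9.73 to 10.7 CPM in KO. The part of these cell types in the member values was not tested.

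Within the 3 lung-rich libraries, KO 1 stands against WT 1 and WT 2, and the spread comes from the WT pair alone. KO 1 was at 1.17 times the WT mean for Ifitm1, 1.31 times for Ifitm2, 1.996 times for Ifitm3 and 2.40 times for Ifitm6. The log2 fold changes were 0.17 for Ifitm1, 0.33 for Ifitm2, 0.93 for Ifitm3 and 1.20 for Ifitm6. No spread among KO libraries is measured there, so these are given with no call. KO 1 also held more epithelial and endothelial transcripts than WT 1 and WT 2 and fewer macrophage transcripts (15042 CPM of the 16 markers, against 21680 and 23884 CPM).

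The difference between the sets was tested as an interaction over all genes. The genotype difference of Ifitm1 was smaller in the lung-rich set by 0.52 on the log2 scale (SE 0.15, edgeR adjusted p = 0.0334), that of Ifitm2 also by 0.52 (SE 0.07, edgeR adjusted p = 3.94e-04) and that of Ifitm3 by 0.36 (SE 0.10, edgeR adjusted p = 0.0248). The interaction of Ifitm6 was -0.22 and that of Ifitm10 was 0.36, and neither passed (edgeR adjusted p = 0.392 and 0.753). Of all genes tested, 10.1% passed with a genotype difference that was lower in the lung-rich set. The set contrast rests on KO 1 as its only lung-rich KO library. Without WT 3 the calls of Ifitm1 and Ifitm3 were lost (edgeR adjusted p = 0.0596 and 0.0770), and without WT 4 that of Ifitm1 (edgeR adjusted p = 0.0808).

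**Figure D2:**
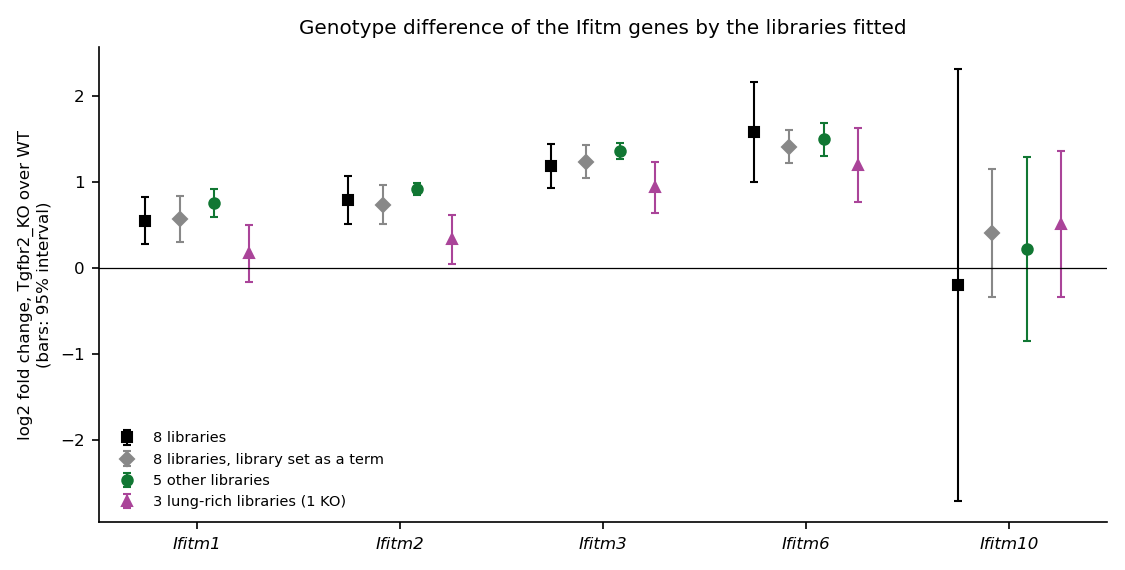
Log2 fold change of KO over WT with its 95% interval for each Ifitm gene, in the fit over 8 libraries, with a term for the library set, within the other 5 libraries, or within the 3 lung-rich libraries (1 KO library, with the spread from the WT pair alone). The values of Ifitm1, Ifitm2, Ifitm3 and Ifitm6 lie above 0 in each fit, and for each of them the lung-rich value is the lowest. Ifitm10 has intervals that include 0 throughout.

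How each member moved with the lung transcripts differed. In WT, the level in the lung-rich libraries relative to the others was 1.21 for Ifitm1, 1.03 for Ifitm2, 1.24 for Ifitm3, 0.659 for Ifitm6 and 6.98 for Ifitm10. The same ratio was 13.4 for the summed epithelial markers, 9.06 for the endothelial, 6.76 for the fibroblast and 0.627 for the macrophage markers. Ifitm10 was thus nearest to the lung markers and Ifitm6 nearest to the macrophage markers, with Ifitm1, Ifitm2 and Ifitm3 in between. In KO, the ratio of KO 1 to the mean of the other 3 was 0.845 for Ifitm1, 0.718 for Ifitm2, 0.965 for Ifitm3, 0.569 for Ifitm6 and 8.93 for Ifitm10. It was 0.453 for the macrophage markers, 29.5 for the epithelial, 15.3 for the endothelial and 11.1 for the fibroblast markers. For Ifitm1, Ifitm2 and Ifitm3 the lung-rich value was thus above that of the others in WT and below it in KO, although for Ifitm3 KO 1 was above KO 2. These are ratios of a pair of libraries or of 1 library, given with no test, and which cells made each transcript was not tested.

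Set against the summed macrophage markers of the same library, a scale chosen after seeing the data, Ifitm6 became steadier. It was at 0.316, 0.291, 0.314 and 0.263 CPM per 1000 CPM of markers in WT and at 1.10, 0.858, 0.921 and 0.852 in KO. The coefficient of variation among the WT libraries was 8.45%, against 25.1% for its CPM, and the KO mean was 3.15 times the WT mean. Ifitm3 was at 8.64, 7.08, 3.83 and 4.07 in WT and at 23.6, 10.6, 11.5 and 11.3 in KO on this scale, and Ifitm2 at 10.9, 9.74, 6.25 and 6.27 in WT and at 20.5, 13.2, 12.9 and 12.7 in KO. Both kept every KO library above every WT library but spread more widely within each genotype than in CPM. Ifitm1, at 1.30, 1.02, 0.611 and 0.586 in WT and 2.05, 1.18, 1.01 and 1.10 in KO, overlapped between the genotypes. Of the 16 markers in the denominator, 1 fell in KO and 0 rose over 8 libraries (0.102% and 0.196% of all genes tested). With the set as a term 6 fell and 2 rose (7.89% and 8.59% of all genes). In the lung-rich libraries their median log2 fold change was -0.63. A denominator that is lower in KO raises the KO values on this scale. This holds most for KO 1, whose sum of 15042 CPM was the smallest.

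**Figure D3:**
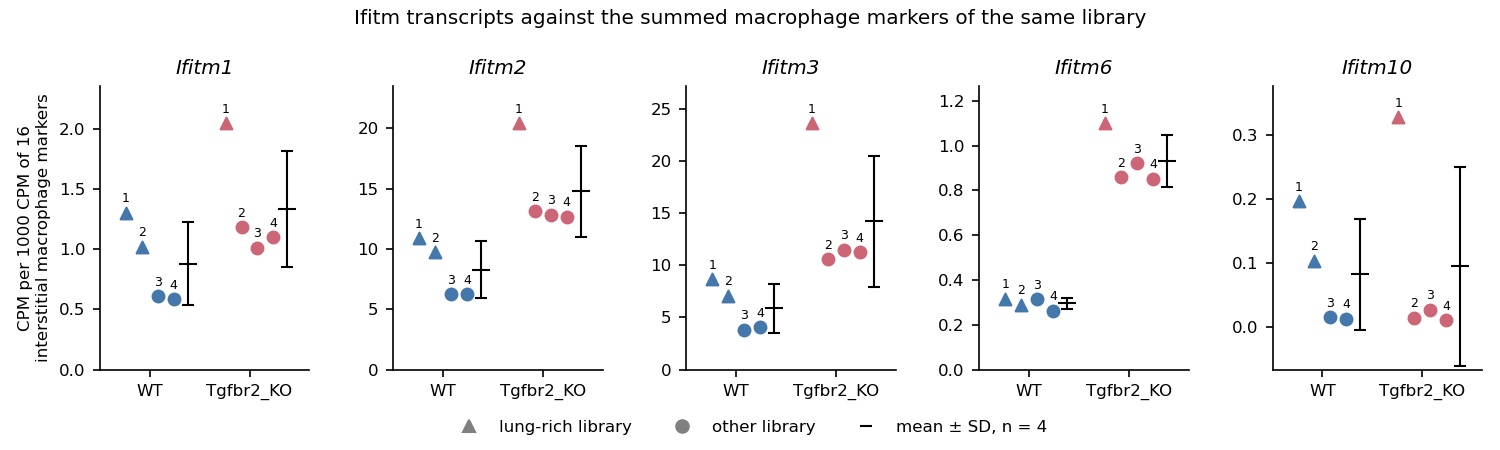
CPM of each Ifitm gene per 1000 CPM of the 16 summed interstitial macrophage markers of the same library (points, numbered by replicate; triangles are the lung-rich libraries), with mean and SD per genotype (n = 4). Ifitm6 lies in a narrow band in WT, 0.263 to 0.316, and in KO at 0.852 to 1.10, while the lung-rich libraries stand above the others of their genotype for Ifitm1, Ifitm2, Ifitm3 and Ifitm10.

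Levels of different genes are compared per kb of exon (the union of annotated exons). In WT the order was Ifitm2 at 353 ± 6.85 CPM per kb, Ifitm3 at 237 ± 32.2, Ifitm1 at 22.0 ± 2.82, Ifitm6 at 9.60 ± 2.41 and Ifitm10 at 0.401 ± 0.379 (SD, n = 4), and no neighbours in this order overlapped. In KO the order was the same, with Ifitm2 at 608 ± 92.6 CPM per kb, Ifitm3 at 539 ± 21.2, Ifitm1 at 32.1 ± 3.39, Ifitm6 at 28.7 ± 7.02 and Ifitm10 at 0.344 ± 0.459. There the means ± SD of Ifitm2 and Ifitm3 overlapped, as did those of Ifitm1 and Ifitm6. The genes are measured in the same libraries, and this pairing was not used. In CPM, Ifitm2 was above Ifitm3 in KO 2 to KO 4 (423 to 437 against 351 to 380) and below it in KO 1 (308 against 356).

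The summed CPM of the 5 members was 426 ± 29.0 in WT (398 to 463) and 826 ± 74.0 in KO (716 to 870; SD, n = 4). Ifitm2 and Ifitm3 made up most of it in both genotypes. The share of Ifitm3 was 37.6% ± 2.56 in WT and 44.5% ± 3.70 in KO, and that of Ifitm2 was 54.3% ± 2.61 and 48.0% ± 3.47 (SD, n = 4). The ratio of Ifitm3 to Ifitm2 was 0.612 to 0.793 in the WT libraries and 0.803 to 1.16 in the KO libraries, with KO 1 the highest.

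Ifitm genes are similar in sequence, and estimated counts can be shared between them. Of the stretches of 31 bases in annotated transcripts, Ifitm2 and Ifitm3 share 39, Ifitm1 and Ifitm3 share 35, and Ifitm1 and Ifitm2 share 10, out of 1075 for Ifitm1, 625 for Ifitm2 and 648 for Ifitm3. Ifitm6 shared none with any annotated gene. With any annotated gene, Ifitm2 shared 55.5% of its stretches, Ifitm3 20.5% and Ifitm1 11.6%. With another gene of the table Ifitm2 shared 40.3%, mostly with Gm45717, which overlaps its exons by 268 bases and had 0 counts in every library. Ifitm10 overlaps Gm49369 by 215 bases, so the split between these 2 is uncertain at levels this low. Reads of the 3 abundant members could in part be assigned either way, and the sources used here do not give the transcript set used in counting.

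Other genes with a role in interferon defence give the surroundings of the family, from a list of 42 type I interferon antiviral effectors chosen with earlier results known and without Ifitm genes. Of the 39 tested, 1 rose and 0 fell over 8 libraries, where 0.196% of all genes rose and 0.102% fell. With the set as a term 14 rose and 0 fell, where 8.59% of all genes rose and 7.89% fell. In the other 5 libraries 19 rose and 2 fell, where 19.7% of all genes rose and 18.7% fell. The median log2 fold change was 0.35 over 8 libraries, against -0.01 for all genes tested, and 0.31 against 0.03 with the set as a term. Every KO library was above every WT library for 9 of the 39, as for 4.19% of all genes. Rtp4, an interferon-induced chaperone of receptor transport that also restricts viruses, was the gene that rose: it was at 17.6, 16.95, 17.7 and 18.4 CPM in WT and at 37.3, 27.3, 32.5 and 28.8 CPM in KO. Its log2 fold change was 0.83 (SE 0.10, edgeR adjusted p = 0.0350), and KO 1 was the highest KO library, where for Ifitm1, Ifitm2 and Ifitm6 it was the lowest.

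Oas2, which makes the activator of RNase L, was at 32.9, 40.3, 51.9 and 56.3 CPM in WT and at 73.9, 111, 135 and 125 CPM in KO, with no overlap and KO 1 lowest. Its log2 fold change of 1.29 did not pass over 8 libraries (edgeR adjusted p = 0.0935), nor did those of Parp14, an interferon-induced ADP-ribosyltransferase (0.49, from 186 to 261 CPM in the means), and Ddx58, the RNA sensor RIG-I (0.33, from 50.5 to 63.6 CPM). With the set as a term all of these passed, Oas2 at 1.13 (edgeR adjusted p = 3.38e-04), Parp14 at 0.46 (0.00135) and Ddx58 at 0.37 (0.00229). Ifitm1, Ifitm2, Ifitm3 and Ifitm6 had larger fold changes than the median of this list over 8 libraries and with the set as a term. The same held in the other 5 libraries, where the list median was 0.21. In the lung-rich libraries the median was 0.37, with Ifitm3 and Ifitm6 above it and Ifitm1 and Ifitm2 below. Because the family was proposed with this contrast known, nothing is read from these comparisons. The ISRE core lay in the promoter window of 14 of the 31 listed effectors that have one (45.2%), and in 3.99% of the 10055 tested genes with a window.

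**Figure D4:**
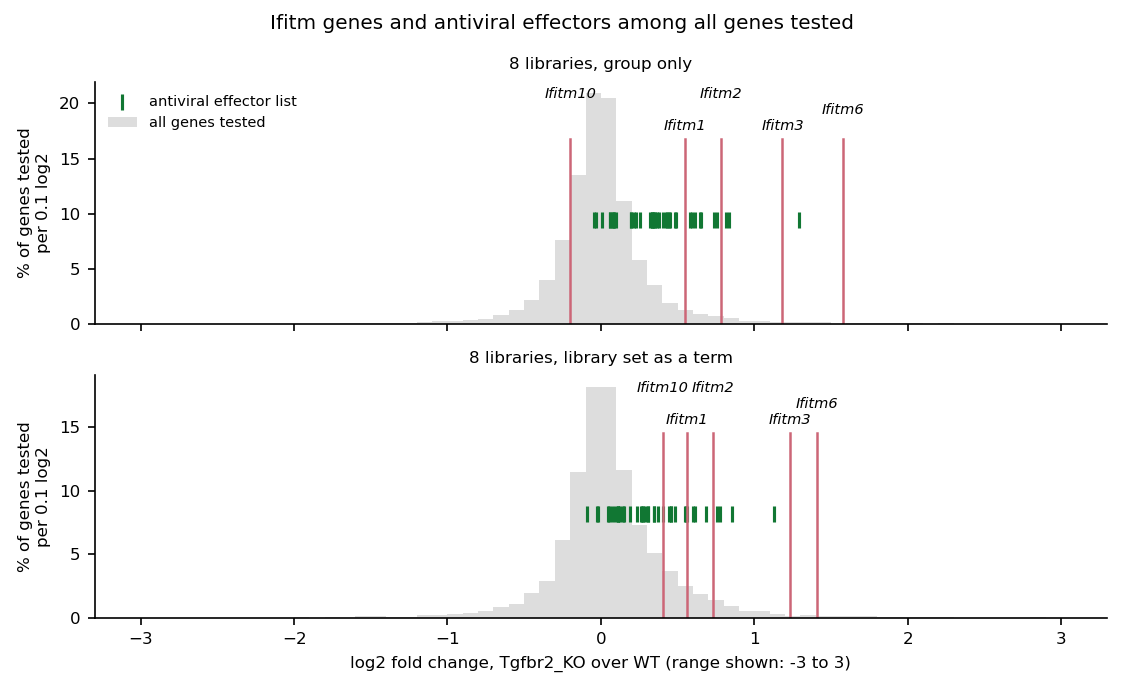
Distribution of log2 fold changes, KO over WT, of all genes tested (grey, percent of genes per 0.1 log2), with the antiviral effectors (green ticks) and the 5 Ifitm genes (red lines), over 8 libraries (top) or with a term for the library set (bottom). Ifitm6 lies to the right of every listed effector in both panels, Ifitm3 of every one but Oas2 in the top panel, and Ifitm10 moves from -0.20 to 0.40 between the panels.

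Interferon receptors and their signalling genes did not move one way. Of 20 tested, 0 passed over 8 libraries, 4 rose and 6 fell with the set as a term (8.59% and 7.89% of all genes), and 4 rose and 9 fell in the other 5 libraries (19.7% and 18.7% of all genes). The medians were -0.06, -0.20 and -0.06. Stat2, part of the factor that binds ISREs, was at 59.8, 59.3, 59.9 and 61.7 CPM in WT and at 87.0, 71.4, 79.1 and 73.7 CPM in KO. The groups did not overlap, and the log2 fold change of 0.37 did not pass over 8 libraries (edgeR adjusted p = 0.111) and was 0.39 and passed with the set as a term (0.00551). Usp18, the brake of the type I interferon receptor, had a log2 fold change of 0.39, Jak1, a kinase of the receptors, of 0.26, and Ifngr2, a chain of the interferon-γ receptor, of -0.27, each with overlapping groups. With the set as a term Usp18 (0.44, edgeR adjusted p = 0.0331) and Ifngr2 (-0.36, 0.00797) passed and Jak1 (0.22, 0.0723) did not.

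Of 19 genes that bind, move or modify IFITM proteins, 0 passed over 8 libraries, with a median of 0.02. With the set as a term 2 rose and 1 fell, beside 8.59% and 7.89% of all genes, and in the other 5 libraries 6 rose and 5 fell, beside 19.7% and 18.7%. Ap2a2 encodes a subunit of the AP-2 adaptor, through which Ifitm3 is taken up from the plasma membrane. It was at 162, 174, 177 and 180 CPM in WT and at 215, 344, 391 and 371 CPM in KO, with no overlap and KO 1 lowest. Its log2 fold change was 0.93 over 8 libraries (edgeR adjusted p = 0.114) and 0.81 with the set as a term, where it passed (0.00715). Cd9, a tetraspanin, a class of membrane proteins with which IFITM proteins associate, went the other way, at 302, 348, 462 and 448 CPM in WT and at 221, 174, 178 and 183 CPM in KO. No library of one group reached the other, and the log2 fold change of -1.05 did not pass over 8 libraries (edgeR adjusted p = 0.0590) but did with the set as a term, at -1.06 (0.00367). Ap2m1, the AP-2 subunit that reads the sorting signal, had a log2 fold change of 0.32, and Vapa, a membrane contact protein bound by IFITM3, of 0.21, with overlapping groups. With the set as a term Ap2m1 passed, at 0.23 (edgeR adjusted p = 0.0358), and Vapa did not (0.120).

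Relatives in the CD225 family were at most a few CPM. Ifitm5 was at 1.52 to 2.24 CPM in WT and 2.12 to 3.62 CPM in KO, with overlap (log2 fold change 0.56, edgeR adjusted p = 0.450). It did not pass with the set as a term either (0.56) and passed within the other 5 libraries, at 0.89 (edgeR adjusted p = 0.00867). Prrt1, a synaptic relative, was at 0.564 to 1.01 CPM in WT and 0.385 to 0.926 CPM in KO. Trarg1, which takes part in glucose transporter trafficking, had too few counts to be tested over 8 libraries and had 2.90 CPM (WT 1), 2.11 CPM (WT 2) and 5.89 CPM (KO 1) in the lung-rich libraries and 0.110 to 0.410 CPM elsewhere. The pattern of Trarg1 resembled that of Ifitm10. Prrt2, also with too few counts to be tested over 8 libraries, was at 0.0563 to 0.591 CPM in WT and 0.330 to 3.41 CPM in KO, highest in KO 1. Tmem91, Tmem233 and Syndig1l were at most at 0.2645 CPM.

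Among the genes next to the cluster, Pgghg, which encodes an enzyme that trims glucose from collagen, lies 1.29 kb beyond Ifitm5 and had no overlap between genotypes, with KO the higher. WT libraries had 15.4, 16.3, 14.0 and 12.7 CPM and KO libraries 17.9, 23.0, 21.1 and 22.2 CPM. Its log2 fold change was 0.53 (SE 0.11, edgeR adjusted p = 0.139), and 0.53 with the set as a term, where it passed (0.0178). It was 0.74 within the other 5 libraries and 0.11 within the lung-rich set, beside the 0.55, 0.75 and 0.17 of Ifitm1. On the other side Pkp3, a desmosome gene of epithelia, was at 1.32 to 3.67 CPM in WT and 1.02 to 3.41 CPM in KO. Cox8b, Nlrp6, B4galnt4 and Gm17387 were at most at 0.307 CPM. Ctsd, the lysosomal protease cathepsin D, lies 2.16 kb from Ifitm10, and its means were 1332 CPM in WT and 967 CPM in KO (log2 fold change -0.46, edgeR adjusted p = 0.931). The set term brought Ctsd to -0.64 (edgeR adjusted p = 0.0169), and within the other 5 libraries it was at -0.83 (2.45e-14), so that it passed in both. Unlike Ifitm10, it was lower in the lung-rich libraries, at 579 to 839 CPM against 1066 to 1979 CPM.

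The genes most alike to each member were found by Pearson's r of log2 CPM over the 8 libraries, among the 8807 other genes with a mean of at least 10 CPM (8808 for Ifitm10), as a description. For Ifitm2 they were Folr2 (r = 0.998), Aldh1a2 (0.995) and Tmem8 (0.995). For Ifitm3 they were Anks1 (0.994), Cd209g (0.990) and Cd209f (0.989). Folr2, a folate receptor of tissue macrophages, was at 50.8 to 61.1 CPM in WT and at 121, 311, 317 and 313 CPM in KO. Cd209f, a C-type lectin, was at 3.21 to 7.77 CPM in WT and at 62.9, 128, 132 and 125 CPM in KO. Both share with Ifitm2 a KO 1 library that is low among the KO libraries.

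For Ifitm6 the most alike genes were Sp100 (0.995), Clec10a (0.994) and Susd1 (0.993), and for Ifitm1 they were Lifr (0.989), Wwp1 (0.987) and Btg2 (0.983). Sp100, a nuclear body protein induced by interferon, was at 91.9 to 105 CPM in WT and 120 to 142 CPM in KO, and Clec10a, a macrophage lectin, at 38.7 to 65.7 CPM and 104 to 274 CPM. For Ifitm10 they were Phlpp1 (0.992), Crtap (0.991) and Ptpn14 (0.991). Ptpn14, a phosphatase, was at 34.2 to 68.4 CPM in the lung-rich libraries and 1.48 to 4.03 CPM in the others, so that Ifitm10 shares its pattern over libraries and not over genotypes.

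Among the members, r over 8 libraries was 0.930 between Ifitm2 and Ifitm3, 0.953 between Ifitm2 and Ifitm6, 0.927 between Ifitm1 and Ifitm2, 0.928 between Ifitm1 and Ifitm3, 0.862 between Ifitm3 and Ifitm6 and 0.804 between Ifitm1 and Ifitm6. Ifitm10 was at -0.50 to -0.04 with the others. No member was among the 3 genes most alike to another. Over the other 5 libraries alone the most alike genes were Lifr, Rbl2 and Myh10 for Ifitm1, Rgl1, Dab2 and Ccl2 for Ifitm2, Trf, Lrrc25 and Adam15 for Ifitm3, Kmt2a, Zdhhc14 and Kctd12 for Ifitm6, and Sh2b1, Khk and Stx5a for Ifitm10. Of these, Lifr alone was also in a list over 8 libraries. The libraries share genotype, library set and scaling, which alone give many genes a high r.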

How the data were processed

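The authors deposited 1 table of estimated counts for each gene, made with salmon per the file name and labels; 81.8% to 84.8% of a library's values were whole. GRCm38 and DESeq2 1.40.1 are named in the submitters' processing notes, and the sources used here do not give the salmon version, annotation or strand setting. Counts were rounded and analysed in R 4.3.3. Low genes were removed by filterByExpr (at a minimum count of 10 and a total of 15), and the rest scaled by TMM and tested with edgeR 4.0.16 (robust quasi-likelihood F-test, group only), with Benjamini-Hochberg adjustment over the 12750 genes tested and a threshold of 0.05. DESeq2 1.42.0 was an alternative. The group-only, set-term and interaction fits were also run on simulated data with known changes, drawn from a model of the library set. The fits within a library set were not, and nothing is read from the simulation here. Replicate numbers are those of the titles; the labels do not say whether libraries come from separate mice, so the spread behind each p-value is that between libraries and may be technical.

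The members and lists were chosen with earlier results of these data known. The rule for named genes took the members, Tgfbr2, the up to 4 genes of each pathway list with the smallest adjusted p (of the CD225 relatives, those with counts), the 2 highest of each marker list, up to 3 coding neighbours on each side of the cluster and of Ifitm10, and the 3 genes most alike to each member. Lymphocyte markers were led by Cd4 and Cd79b and alveolar macrophage markers by Ear2 and Olr1; over all libraries they summed to 54.0 to 97.8 CPM and 78.3 to 295 CPM. Motifs were searched on both strands.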

Additional observations from a re-analysis of the deposited data

Results flagged for a closer look

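Among the 10 groups of 4 libraries (5 members in each genotype), a library stood far from the others in 3. The library was KO 1 each time. The rule flags about 1 in 20 groups of like libraries, a rate that does not apply here. KO 1 had already been set apart from the data as lung-rich, so the 3 flags are not independent. The share of all genes with such a library was not counted. Ifitm2 was at 308 CPM in KO 1, against 423 CPM in the nearest KO library. Ifitm6 was at 16.6 CPM in KO 1, against 28.4 CPM in the nearest. Ifitm10 was at 4.93 CPM in KO 1, against 0.867 CPM in the nearest. No other KO library is lung-rich, and the part of its lung transcripts in these values was not tested.

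The genotype difference itself differed between the library sets for 3 members, with the lung-rich set lower by 0.52 on the log2 scale for Ifitm1 (-0.52), by the same for Ifitm2 (-0.52) and by less for Ifitm3 (-0.36). The lung-rich side of each rests on KO 1.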

How the results depend on the processing

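Scaling by RLE or upper-quartile factors and testing without a filter on low counts kept the direction of all 5 members and their side of the threshold. The edgeR counts of genes higher and lower in KO, 25 and 13, became 314 and 149 with DESeq2, then 1095 and 1006 once the library set was a term, 2493 and 2363 within the 5 other libraries, then 443 and 273 within the 3 lung-rich libraries. They became 2047 and 1946 with the set as a term and without KO 1, a setting chosen after seeing the data. Leaving out 1 library gave 0 to 619 higher and 0 to 241 lower genes, with 0 of each unless KO 1 was left out; 807 to 1451 genes then had an unadjusted edgeR p under 0.05.

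With DESeq2, Ifitm1 (0.55), Ifitm2 (0.78) and Ifitm6 (1.57) also passed. So they did with the set as a term (0.56, 0.73 and 1.41) and in the 5 other libraries (0.75, 0.91 and 1.49). With the set as a term and without KO 1 they passed as well (0.75, 0.91 and 1.49). In the lung-rich libraries Ifitm6 was at 1.20 and Ifitm3 at 0.93. No call is made there, since the lone KO library is assumed to vary like WT. Ifitm10 changed sign, to 0.40 with the set as a term, 0.21 in the 5 other libraries, 0.21 with the set as a term and without KO 1 together, and 0.51 in the lung-rich libraries. Over the fits that leave out 1 library, log2 fold changes ran from 0.48 to 0.63 for Ifitm1, 0.73 to 0.89 for Ifitm2, 1.12 to 1.27 for Ifitm3, 1.48 to 1.74 for Ifitm6 and -1.78 to 0.54 for Ifitm10. Genes whose genotype difference differed between the sets numbered 2411, and 1393 to 3264 when 1 library was left out, lowest without WT 4 (1393) and WT 3 (1479). KO 1 could not be left out of that test. The causes of these changes were not tested.

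With the replicate block, 0 genes passed in either direction in edgeR (1479 at an unadjusted p under 0.05), and Ifitm3 was at 1.19 (edgeR adjusted p = 0.107). Deviations of same-numbered libraries correlated at 0.867, -0.794, 0.694 and 0.753, and not every library correlated best with its own number. Numbers 1, 3 and 4 join libraries of the same set, and number 2 joins a lung-rich WT library with a KO library that is not. The library set was not removed from the deviations, so this check cannot tell whether the numbers pair the libraries. The counts behind Ifitm10, 6 to 149 per library, limit its precision, and the lung-rich set has 1 KO library.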
